A study of Homo sapiens with 4 samples.

Results

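BrdU peaks that lay only in genes of long non-coding RNAs (lncRNAs) numbered 4484 of the 32710 autosomal peaks, or 13.7%, in a list of 33295 peaks in all. A peak was counted here when it overlapped by at least 1 base a gene that GENCODE version 44 types as lncRNA and overlapped no protein-coding gene, on chromosomes 1 to 22 of hg38, and it is called a lncRNA-only peak. The rule used gene annotation alone and no measured value. The list was made in BJ-hTERT cells, human foreskin fibroblasts immortalised with telomerase. The cells were synchronised by serum starvation and labelled with a pulse of BrdU, a thymidine analogue that is built into newly made DNA. BrdU-labelled DNA was enriched and sequenced at 16, 19, 22, 24 and 28 h after release in 2 repeats, peaks were called against input DNA, and the authors gathered the peaks of all timepoints in 1 list that names neither the timepoint nor the repeat and carries no score. All cells shared the line, the starvation and the BrdU pulse, and the RNAPII and PCNA ChIP-seq samples of 14 and 16 h were not analysed here. Peaks that overlapped or touched were merged, which left 3604 sites with a lncRNA-only peak among 25287 autosomal sites, and the depth of a site is the largest number of peaks over 1 of its bases. Depth cannot be tied to a timepoint or a repeat, read counts behind a peak are unknown, and no value below has a replicate spread, so intervals (95%) cover counting error only and are too narrow where sites lie in clusters.

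LncRNAs are transcripts without a long open reading frame. Many are spliced, their genes are often mostly intron, and they lie between protein-coding genes, on the opposite strand of such genes or next to their promoters. A peak of BrdU in a population of S-phase cells marks DNA that was labelled more often than its surroundings, and such places have been read as sites where replication forks slow down or pause. Repeated DNA is a known obstacle for forks and also a known difficulty for placing short reads.

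Of the 11 lncRNA-only sites 5 peaks deep, the greatest depth found, 4 are shown for the repeated words in them. In ENSG00000258342 a long unit repeated in register. In the other 3 a short word recurred in imperfect runs, and these sites stayed under the limit set later for tandem arrays. Each line gives 200 bases of the plus strand of hg38, read from the reference genome and centred on the deepest stretch of the site. These are chr14:35948162-35948361 (ENSG00000258342, gene on the plus strand), chr5:68965490-68965689 (ENSG00000249335, minus strand), chr10:70960452-70960651 (ENSG00000285300, plus strand) and chr7:528442-528641 (PDGFA-DT, plus strand), and each lay in an intron. Capitals mark every other copy of a unit of 27 bases in ENSG00000258342, the word CACACA in ENSG00000249335, TGTGTG in ENSG00000285300 and GATG in PDGFA-DT.
ENSG00000258342: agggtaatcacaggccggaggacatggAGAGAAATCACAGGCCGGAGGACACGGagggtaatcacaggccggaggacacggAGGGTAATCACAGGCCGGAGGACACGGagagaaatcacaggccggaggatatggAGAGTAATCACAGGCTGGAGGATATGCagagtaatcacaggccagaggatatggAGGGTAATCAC
ENSG00000249335: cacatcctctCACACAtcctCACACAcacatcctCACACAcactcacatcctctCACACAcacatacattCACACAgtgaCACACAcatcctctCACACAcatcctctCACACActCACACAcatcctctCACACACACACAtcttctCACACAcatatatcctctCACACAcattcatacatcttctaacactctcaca
ENSG00000285300: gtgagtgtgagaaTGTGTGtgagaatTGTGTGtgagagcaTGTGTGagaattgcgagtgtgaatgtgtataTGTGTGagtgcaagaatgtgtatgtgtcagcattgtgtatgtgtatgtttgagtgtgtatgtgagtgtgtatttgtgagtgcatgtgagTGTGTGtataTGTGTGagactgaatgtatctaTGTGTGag
PDGFA-DT: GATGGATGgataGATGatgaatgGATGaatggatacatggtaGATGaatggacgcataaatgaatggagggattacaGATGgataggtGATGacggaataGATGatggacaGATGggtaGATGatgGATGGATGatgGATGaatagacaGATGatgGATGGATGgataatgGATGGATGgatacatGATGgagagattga

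Within ENSG00000258342 90.8% of the bases shown equalled the base 27 positions further on. The word CACACA occurred 13 times in the window of ENSG00000249335, a count reached by 0.777% of the 3604 windows of the same length at sites with a lncRNA-only peak (counted without overlap, on the strand with more copies). The corresponding values were 7 copies of TGTGTG and 3.52% of windows in ENSG00000285300, and 19 copies of GATG and 0.860% in PDGFA-DT. The median window held 0 copies of CACACA or TGTGTG and 1 of GATG. A different word was set for each site shown, so these shares describe that choice and are no test. CACACA and TGTGTG are reverse complements, so counts of both measure the same word. Over the widest peak of the 3 sites with short words 1 base was nearly missing, with 1.25% G in ENSG00000249335, 2.50% C in ENSG00000285300 and 2.80% C in PDGFA-DT, whereas the scarcest base of ENSG00000258342 was T with 12.9%.

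For comparison a shallower site is shown, 2 peaks deep, in the exon of NEAT1, a gene described further on (chr11:65438457-65438656, plus strand). Capitals mark runs of at least 5 A or T.
NEAT1: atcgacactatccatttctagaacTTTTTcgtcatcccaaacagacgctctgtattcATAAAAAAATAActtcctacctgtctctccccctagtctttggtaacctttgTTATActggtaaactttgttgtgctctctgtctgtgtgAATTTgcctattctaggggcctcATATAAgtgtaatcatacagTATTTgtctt

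The AT content of this window was 62.0%, and the runs of A or T numbered 6, which was also the median over all 3604 windows. As many runs or more were found in 53.1% of those windows, so by this count it was not unusual. Of its 24-base words 89.3% were found once in hg38, and the commonest was found 8 times. The corresponding values were 15.3% and 16 times in ENSG00000258342 and 83.1% and 4 times in ENSG00000249335. They were 98.9% and 2 times in ENSG00000285300, and 75.1% and 12 times in PDGFA-DT.

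LncRNA-only peaks were narrow. Their median width was 279.5 bp (quartiles 220 and 384 bp) and their AT content was 60.4% ± 5.38 (mean and SD over 4484 peaks). Peaks outside both gene types had 59.7% ± 5.94 and peaks in protein-coding genes 59.7% ± 6.05, differences smaller than the SD of a class. Per Mb of DNA that lay in lncRNA genes and outside protein-coding genes, 420.2 Mb in all, there were 10.7 peaks (10.4 to 11.0) and 8.57 sites. Outside lncRNA and protein-coding genes there were 10.2 peaks per Mb (9.96 to 10.3), and in protein-coding genes 13.8 (13.6 to 14.0). The lncRNA-only site density was above that of DNA outside both gene types on 12 of 22 autosomes and above that of protein-coding genes on 4 of 22. It was highest on chromosome 19, with 15.8 sites per Mb, and on chromosome 12, with 15.0, and lowest on chromosome 4, with 3.32. Over all autosomes lncRNA-only DNA thus lay between the other classes, but the order varied among chromosomes, and these densities were not tested.

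Of the 18390 lncRNA genes on autosomes, 1346 held a lncRNA-only peak, or 7.32%. This share is set in part by the rule, since 8458 of the 18390 genes overlap a protein-coding gene and the shared DNA is barred. The 1346 genes were long, with a median of 56.6 kb (52.4 to 61.9) against 6.23 kb over all lncRNA genes and 5.24 kb (5.08 to 5.41) over the 17044 genes without a peak. The share of genes with a site rose from 2.00% of genes of 1 to 10 kb to 7.29% at 10 to 30 kb, 17.4% at 30 to 100 kb and 33.3% (30.8 to 35.8) above 100 kb. Per base the density did not rise steadily with length. When each base was given to the longest lncRNA gene over it, the density of site midpoints was 8.34 per Mb (6.99 to 9.88) in genes of 1 to 10 kb, 8.45 (7.53 to 9.46) at 10 to 30 kb, 10.1 (9.43 to 10.7) at 30 to 100 kb and 8.03 (7.69 to 8.37) above 100 kb. Genes above 100 kb made up 64.5% of lncRNA-only DNA and held 60.6% of the site midpoints. Genes under 1 kb held 3 midpoints in 0.632 Mb, too few to place their density.

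**Figure D1:**
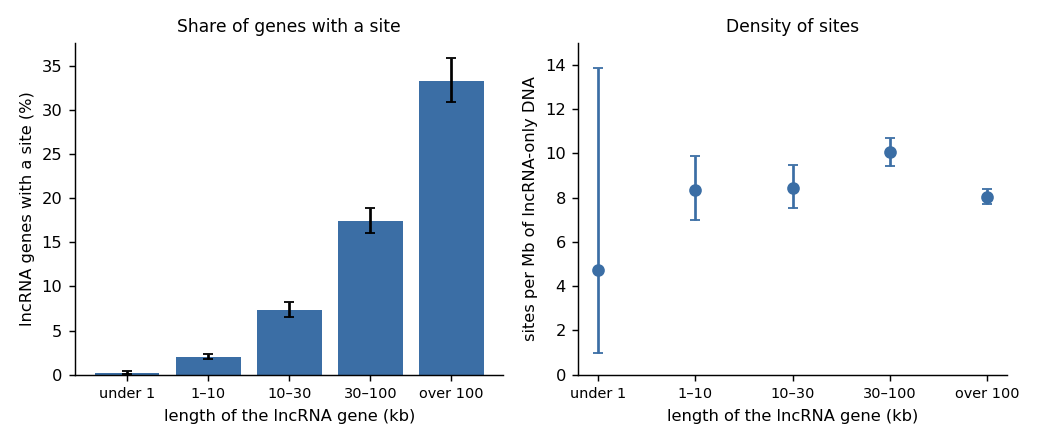
Left, share of autosomal lncRNA genes with at least 1 site with a lncRNA-only peak, by gene length in kb. Right, midpoints of such sites per Mb of lncRNA-only DNA for the same length classes. Bars on the left are Wilson 95% intervals and on the right exact Poisson 95% intervals. The share climbs to 33.3% of genes above 100 kb, while the density stays between 8.03 and 10.1 sites per Mb from 1 kb upwards.

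Lying over an exon was rare. Of the 4484 lncRNA-only peaks 252 touched a lncRNA exon (5.62%, 4.98 to 6.33), 124 lay wholly inside an exon and 4232 held no exonic base. By bases, exons made up 3.91% of the DNA under lncRNA-only peaks and 5.99% of lncRNA-only DNA. By site midpoints, with the longest gene taken at each base and its canonical transcript as the frame, canonical exons had 5.55 sites per Mb (4.34 to 6.99) and exons of other transcripts 4.95 (3.61 to 6.63). The first intron of the canonical transcript had 10.1 per Mb (9.57 to 10.6) and later introns 7.92 (7.56 to 8.29). Thus the first introns, 34.2% of lncRNA-only DNA, held 40.4% of site midpoints, and exons were the sparsest compartment. Of the peaks 583 (13.0%) lay over more than 1 lncRNA gene. These densities were not tested.

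Along the gene the sites were spread almost evenly. In lncRNA genes of at least 20 kb the density was 9.06 sites per Mb (8.41 to 9.74) in the 20% of the gene nearest its start, 8.49 from 20 to 40%, 8.34 from 40 to 60%, 8.72 from 60 to 80% and 7.84 (7.21 to 8.52) in the last 20%. The median distance from a lncRNA-only peak to the nearest lncRNA start was 23.5 kb.

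LncRNA-only peaks lay at widely varying distances from protein-coding genes. The median distance from a lncRNA-only peak to the nearest protein-coding gene was 70.5 kb (66.3 to 74.4), with quartiles of 24.8 and 168 kb, a smallest value of 154 bp and a largest of 2691 kb. Peaks outside both gene types were closer, with a median of 38.4 kb (37.3 to 39.8). LncRNA-only DNA itself often lies far from protein-coding genes, with 103 of its 420.2 Mb at 200 to 500 kb and 65.8 Mb above 500 kb. Density was therefore compared in bins of equal distance. Up to 100 kb the classes were alike, with 12.6 lncRNA-only sites per Mb (11.6 to 13.7) against 11.8 (11.3 to 12.3) outside both gene types at 5 to 20 kb, and 10.8 (9.94 to 11.6) against 10.7 (10.2 to 11.3) at 50 to 100 kb. At 100 to 200 kb lncRNA-only DNA had 10.9 sites per Mb (10.2 to 11.7) and DNA outside both had 7.97 (7.51 to 8.46). At 200 to 500 kb the values were 5.21 (4.78 to 5.67) and 3.24 (2.98 to 3.51), and above 500 kb 2.89 (2.49 to 3.33) and 2.39 (2.20 to 2.60). Intervals of the classes were apart from 100 to 500 kb and overlapped nearer than that and above 500 kb, and the differences were not tested. The sites of a few long genes fall in the far bins, among them those of ENSG00000259345 and ENSG00000288714 described below.

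**Figure D2:**
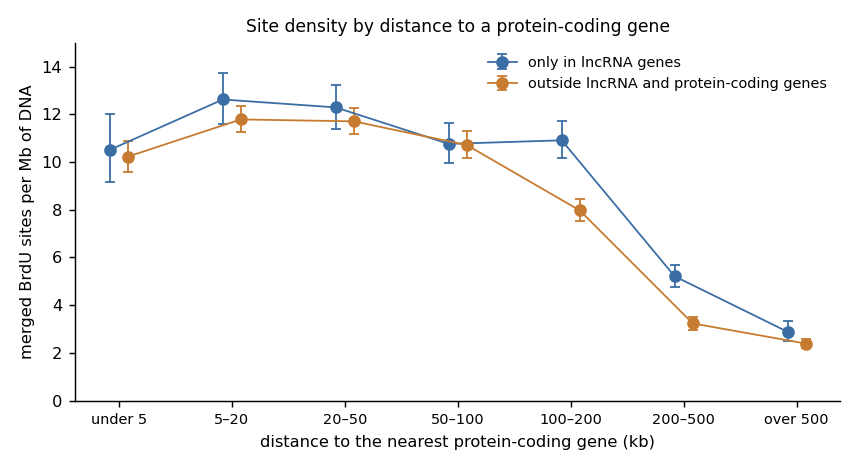
Merged BrdU sites per Mb of DNA (y axis) by distance to the nearest protein-coding gene in kb (x axis), for sites only in lncRNA genes and for sites outside lncRNA and protein-coding genes. Points are densities and bars exact Poisson 95% intervals. The series run together up to 100 kb, lie at 10.9 and 7.97 sites per Mb at 100 to 200 kb, and both end below 3 above 500 kb.

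Orientation to the neighbouring gene was compared with the share of lncRNA-only DNA in the same orientation. Where the lncRNA gene and the nearest protein-coding gene were transcribed from the same strand, the density was 7.59 sites per Mb (7.19 to 8.00, 1358 sites). Where they lay on opposite strands it was 9.31 (8.84 to 9.80, 1472 sites) with the start of the coding gene nearer to the site than its end and 9.11 (8.47 to 9.78, 757 sites) with its end nearer. At 1157 sites (32.3%) the lncRNA gene overlapped its nearest protein-coding gene elsewhere along its length, and the densities by orientation were not tested. In all 1151 protein-coding genes were the nearest gene of at least 1 site. Counted at any distance, the most frequent nearest genes were CITED2, a transcriptional co-regulator, with 90 sites, THBS1 with 89 and MSRB3, a methionine sulfoxide reductase, with 57. THBS1 encodes the matrix protein thrombospondin-1. Next came TNFSF18 with 51, TNC, which encodes the matrix protein tenascin C, with 47, and ELL2 and SLC38A2 with 39 each. PCSK1 and SAMD12 had 35 each and FN1, the fibronectin gene, 34. These are counts, without a test, of sites that lie in few clusters, and nearest does not mean close. CITED2 lay 774 kb from ENSG00000288714 and THBS1 154 kb from ENSG00000259345, lncRNA genes described below.

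Sites were gathered in few places. The autosomal lncRNA genes formed 15358 regions of overlapping genes, of which 1139 held a site, 645 of them a lone site. The 10 regions with most sites held 17.7% of all sites with a lncRNA-only peak on 0.994% of lncRNA gene length, and the 100 regions with most held 50.8%. Of the genes 755 had 1 site, 256 had 2, 69 had 10 or more and 25 had 20 or more.

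The gene with most sites was ENSG00000259345, named only by its Ensembl number, at chr15:38865322-39427195 on the minus strand. It had 121 peaks in 103 sites, or 18.3 sites per 100 kb. It overlaps LINC02694 (chr15:38628005-39180499, plus strand), which had 55 sites and shared 52 of them, so those sites count for both genes. THBS1 was the nearest protein-coding gene, 154 kb away. ENSG00000251314 (chr5:95962001-96631085) followed with 77 sites, 33 of which also lay in MIR583HG, a microRNA host gene inside it, and ENSG00000224228 (chr1:172775905-173064015), which overlaps TNFSF18, a ligand of the tumour necrosis factor family, with 72.

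SAMD12-AS1 on chromosome 8, antisense to SAMD12, had 66 sites, and SLC38A4-AS1 (chr12:46383433-46876784), antisense to an amino acid transporter gene, had 63. MSRB3-AS1 (chr12:65466820-65642372) had 53 sites and PSG11-AS1 (chr19:42977463-43171515), in the cluster of pregnancy-specific glycoprotein genes, 48. ENSG00000288714 on chromosome 6, whose nearest protein-coding gene CITED2 was 774 kb away, had 47, and ENSG00000258077 on chromosome 12, beside PHLDA1, had 41. The shortest of the 10, MSRB3-AS1, was 176 kb long. None of their sites was a tandem array, and none was deeper than 3 peaks. The highest self-match in the widest peak of any of their sites was 47.3%, in ENSG00000251314.

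Density stood above the flanks in each of the 10, which describes the choice of genes by their number of sites and is no test. ENSG00000259345 had 18.3 sites of any class per 100 kb against 3.92 in flanks of its own length on both sides, ENSG00000251314 had 12.4 against 1.94, and ENSG00000258077 had 9.74 against 2.26. As a difference the step was smallest in ENSG00000288714, with 7.38 against 4.55. As a ratio it was smallest in PSG11-AS1, with 31.4 against 23.7, and in LINC02694, with 9.95 against 6.70, whose flank holds part of ENSG00000259345. In PSG11-AS1, 35 of 48 sites had fewer than 50% of their 24-base words unique in hg38, against 9 of 103 in ENSG00000259345. The glycoprotein genes there are close copies of each other, and how reads shared by copies were placed is not given in the sources used here.

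**Figure D3:**
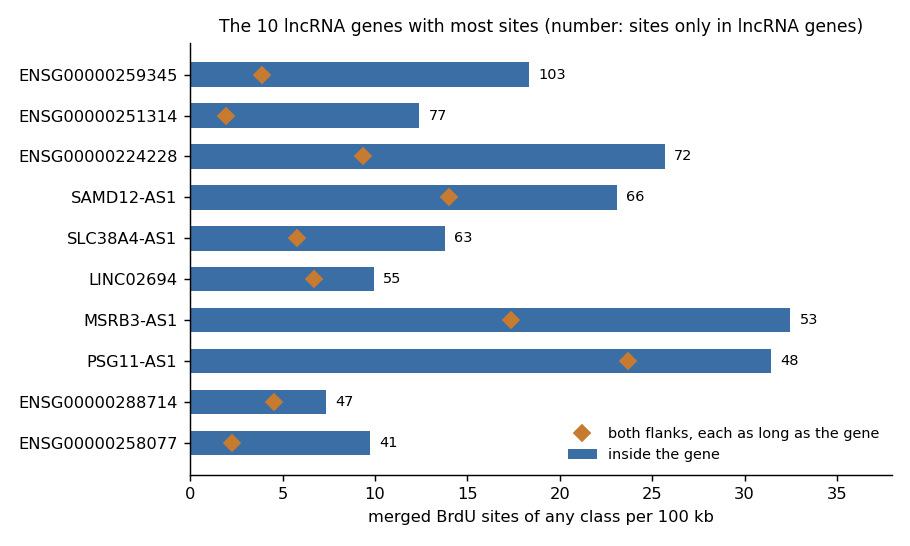
Merged BrdU sites of any class per 100 kb inside the 10 lncRNA genes with most sites (bars) and in both flanks, each as long as the gene (diamonds). The number at each bar is the count of sites with a lncRNA-only peak. ENSG00000259345 leads with 103 sites, and MSRB3-AS1 and PSG11-AS1 have the highest densities of the 10, 32.5 and 31.4 per 100 kb.

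Inside these genes sites followed each other at short distances, with median gaps from 1.39 kb in MSRB3-AS1 to 6.75 kb in ENSG00000258077. Some genes were filled along their whole length and others in part. Stretches of a gene that overlap a protein-coding gene hold no lncRNA-only peak by the rule, which bars 4.07% of ENSG00000224228, 22.4% of ENSG00000251314, 14.0% of MSRB3-AS1 and none of LINC02694. From start to end in steps of 20% of the gene, ENSG00000224228 had 17, 12, 14, 11 and 18 sites. ENSG00000251314 had 26, 27, 20, 2 and 2, with a widest gap of 98.0 kb, and how far the barred DNA sets this was not tested. LINC02694 had 0, 2, 8, 8 and 37, the last of these inside the stretch it shares with ENSG00000259345. MSRB3-AS1, part of which is barred as stated, had 18, 17, 7, 8 and 2, with the midpoint of 1 more site just before its start. How far the barred DNA sets this order was not tested either. In MIR31HG, a microRNA host gene, the midpoints of all 12 sites lay between 32.8 and 74.7 kb from the start of a gene of 180 kb.

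**Figure D4:**
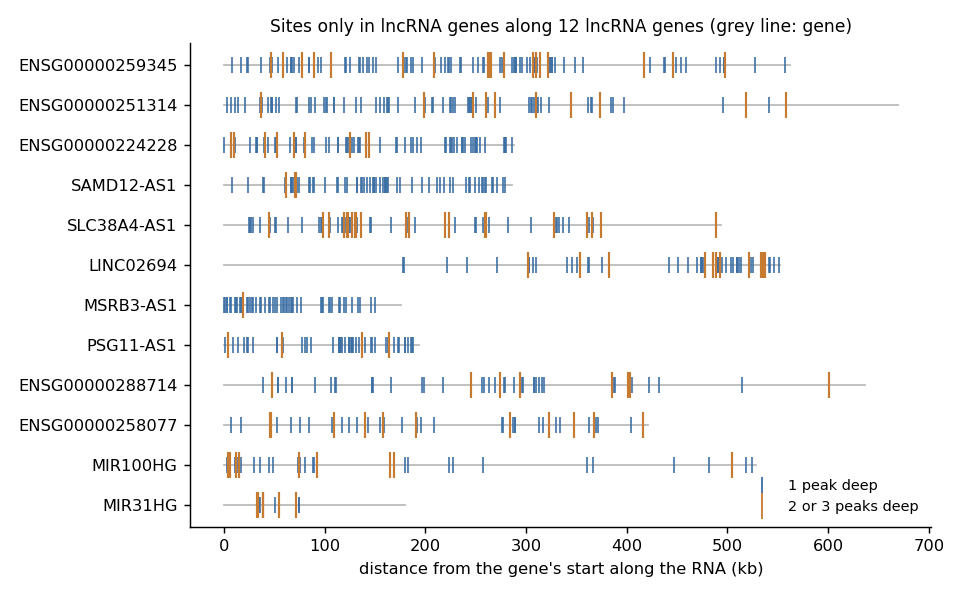
Each tick is a site with a lncRNA-only peak, placed by its distance in kb from the start of the gene along the RNA, for the 10 lncRNA genes with most sites and for MIR100HG and MIR31HG. Grey lines are the genes, and taller ticks are sites 2 or 3 peaks deep. The 12 sites of MIR31HG sit between 32.8 and 74.7 kb, while those of ENSG00000224228 are spread along the gene.

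Per length outside protein-coding genes, the densest genes of at least 20 kb and 3 sites were ENSG00000256915, with 20 sites and 48.7 per 100 kb, LINC02454, with 10 sites and 39.9, MSRB3-AS1 with 35.1, PSG11-AS1 with 31.8 and ENSG00000285864, which overlaps CLPB on chromosome 11, with 7 sites and 29.5. The leading 3 lie together in 1 region of 196 kb on chromosome 12 (chr12:65466820-65663299), which held 60 sites in all, 1 of them more than 1 peak deep. This region was the densest of the 20 regions with most sites, at 30.5 sites per 100 kb. LINC02454 lies inside MSRB3-AS1, and ENSG00000256915 overlaps MSRB3-AS1 in part. Sites in the shared stretches therefore count for more than 1 of these genes, and their densities are not separate findings.

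Well-studied lncRNAs were represented unevenly. Of 35 lncRNAs linked to growth or cancer 13 (37.1%) held a site, against 7.32% of all lncRNA genes, and their lncRNA-only DNA had 10.0 sites per Mb against 8.58 over all. LINC-PINT had 16 sites, PTCSC2, which lies beside the thyroid transcription factor gene FOXE1, 15, PVT1, the neighbour of MYC, 11, and NEAT1 6. The genes of this list are long, with a median of 81.6 kb. Of 22 lncRNAs studied in fibroblasts or mesenchyme 7 (31.8%) held a site, at 31.2 sites per Mb. MIR100HG, a microRNA host gene on chromosome 11, had 35 of the 64 sites of this list, MIR31HG 12, HAS2-AS1, antisense to a hyaluronan synthase gene, 11, and MIR99AHG 3. Of 16 lncRNAs of imprinted domains MEG3 and SNHG14 held 1 site each, at 1.27 sites per Mb of the list. The lists were drawn up with earlier results of these data known, and the densities were not tested.

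By the form of the name, 130 of 1778 antisense genes (7.31%), 65 of 580 genes divergent from a promoter (11.2%), 286 of 2219 intergenic LINC genes (12.9%), 743 of 12843 genes with an Ensembl number only (5.79%), 17 of 79 microRNA host genes (21.5%), 2 of 28 snoRNA host genes and 3 of 135 intronic or overlapping genes held a site. These shares are set in part by the rule, which bars DNA over protein-coding genes but keeps all genes in the count. The intronic or overlapping genes have only 1.09 Mb of lncRNA-only DNA. Per Mb the antisense genes were densest, with 15.3 sites, followed by microRNA hosts with 14.5, divergent genes with 9.20, genes with a number only with 8.73, snoRNA hosts with 7.24, LINC genes with 6.03 and intronic or overlapping genes with 2.74. The order by density thus differed from the order by share of genes. It rested in part on few genes and was not tested. Of the 608 antisense sites SAMD12-AS1 held 66, SLC38A4-AS1 63, MSRB3-AS1 53 and PSG11-AS1 48. Of the 120 sites of microRNA hosts MIR100HG held 35 and MIR583HG 33. The LINC genes with most sites, after LINC02694, were LINC00607 (31), LINC02615 (23) and LINC01592 (16), and the divergent ones were RIPK2-DT (14), SH3TC2-DT (13), ITGB1-DT (11), beside the integrin gene ITGB1, and EPCAM-DT (10). MIR4280HG had 6 sites and SNHG16 4, and MUC20-OT1, SOX1-OT and SOX2-OT had 1 each.

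A peak over an exon was found in 189 of the 1346 genes (14.0%). NEAT1, the scaffold RNA of paraspeckles, had all 7 of its peaks over its exon, in 6 sites between 9.42 and 16.0 kb from the start of a gene of 22.8 kb, or 26.4 sites per 100 kb, and its flanks of the same length held 0 sites. MALAT1, a nuclear speckle RNA encoded further along chromosome 11 and named here after its values were seen, had 3 exonic peaks in 3 sites, or 28.8 per 100 kb. In each of these 2 genes all peaks lay over 1 long exon, inside which any peak counts as exonic. These counts therefore show no preference for exons. Neither gene had an array or a tract. The 3 genes with most exons under lncRNA-only peaks, 4 each, were ENSG00000235779, ENSG00000280441 and ENSG00000291235. ENSG00000235779 (chr2:290941-314373) had 7 of its 8 peaks over an exon, and its 3 sites were all tandem arrays as defined below, at a mean AT content of 43.2%. ENSG00000291235, in the glycoprotein cluster of chromosome 19, had 8 sites 1 peak deep and no array.

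Stacking and repeats were compared between classes on merged sites whose peaks were all of 1 class, 3602 of them lncRNA-only, by 6 two-sided Fisher's exact tests with Benjamini-Hochberg adjustment. Sites are not independent, since they cluster, and no repeat is marked, so the p-values measure counting error over sites. Sites 2 or more peaks deep made up 18.7% of lncRNA-only sites (672 sites), against 21.3% outside both gene types (difference -2.61 percentage points, -4.14 to -1.05, adjusted exact p = 0.0024) and 20.6% in protein-coding genes (-1.99, -3.41 to -0.515, adjusted p = 0.00993), where the share over all autosomal sites was 20.6%. The lncRNA-only share was the lower on 16 and 14 of 22 autosomes. When peaks within 1 kb were merged the difference was -1.35 points (adjusted exact p = 0.268) and -0.249 points (adjusted p = 0.806), so this call depended on how sites were joined. Without the lncRNA-only sites in regions of 10 or more sites the differences were -1.79 and -1.16 points (adjusted exact p = 0.0993 and 0.229), and without sites within 5 Mb of a chromosome end the difference from sites outside both gene types was -1.59 (adjusted exact p = 0.0581).

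Tandem arrays, sites whose widest peak matched itself over at least 70% of positions at an offset of up to 120 bp, were 3.86% of lncRNA-only sites (139 sites). They were 7.96% of sites outside both gene types (difference -4.10 points, -4.93 to -3.22, adjusted exact p = 5.2e-17) and 5.04% in protein-coding genes (-1.18, -1.88 to -0.412, adjusted p = 0.00419), with 5.83% over all sites. The share was lower than outside both gene types on 19 of 22 autosomes. The size of that difference depended on the limit, with -7.14 points at a self-match of 60% and -0.917 at 80% (adjusted exact p = 8.32e-29 and 0.00677). Without the lncRNA-only sites in regions of 10 or more sites the difference from sites outside both gene types was -1.64 points (adjusted exact p = 0.0366) and that from protein-coding genes turned to 1.28 points (adjusted exact p = 0.0378), with those regions left out of the lncRNA-only class alone.

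Perfect short tandem repeat tracts, with a unit of at most 6 bp over at least 20 bp, were found in 3.61% of lncRNA-only sites (130 sites), against 6.06% outside both gene types (difference -2.45 points, -3.22 to -1.62, adjusted exact p = 5.59e-08) and 4.31% over all sites. With tracts of at least 30 bp the difference was -0.625 points (adjusted exact p = 0.0358). Against the 3.42% of sites in protein-coding genes no difference was detected (0.193 points, -0.454 to 0.916, adjusted exact p = 0.572). Units of 2 bp (54 sites) and 4 bp (46 sites) led, the former as AC or its complement in 43 sites and as AG in 11, the latter as ATCC in 24. The gap to DNA outside both gene types lay mainly in units of 5 bp, which occurred at 0.278% of lncRNA-only sites and 1.69% of the others, there as AATGG at 105 of 140 sites and in lncRNA-only sites at 3 of 10.

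**Figure D5:**
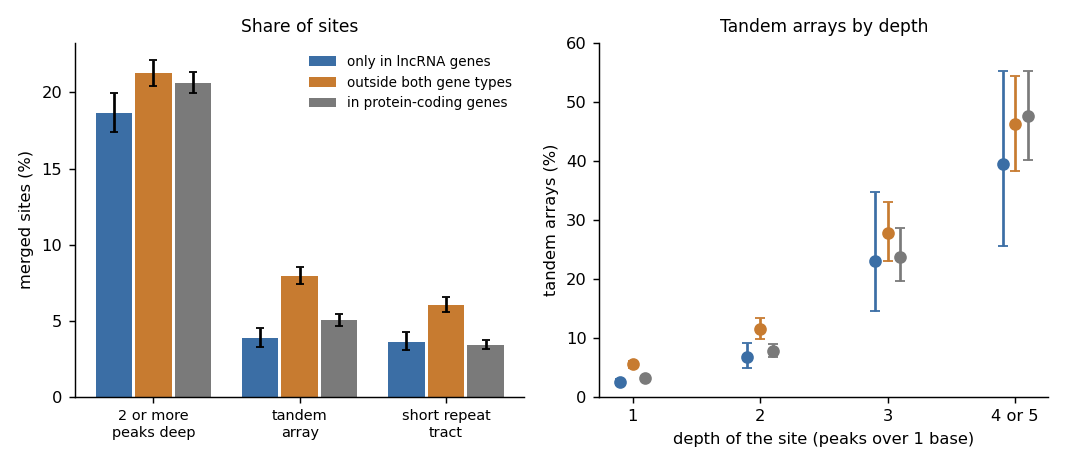
Left, share of merged sites that were 2 or more peaks deep, tandem arrays or held a short repeat tract, in the 3 classes of sites. Right, share of tandem arrays by depth of the site. Bars are Wilson 95% intervals. LncRNA-only sites have the lowest share of stacked sites and of arrays, and their arrays rise from 2.42% at a depth of 1 to 39.5% at 4 or 5.

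Arrays and depth went together. Of lncRNA-only sites 1 peak deep 2.42% were arrays (1.93 to 3.05), of those 2 deep 6.68%, of those 3 deep 23.1% and of the 38 sites 4 or 5 deep 39.5% (25.6 to 55.3). Uneven base composition rose with depth as well. A base under 10% was found in the widest peak of 8.33% of sites 1 peak deep and 23.4% of those 2 deep. The share was 61.5% at a depth of 3 and 73.7% (58.0 to 85.0) at 4 or 5. Neither rise was particular to lncRNA-only sites. From a depth of 1 to 4 or 5, arrays rose from 5.47% to 46.2% outside both gene types and from 3.20% to 47.6% in protein-coding genes. A base under 10% rose there from 13.0% to 80.7% and from 9.17% to 68.7%. Regions with many sites held few arrays. The 63 regions with 10 or more sites held 1544 sites with 9 arrays (0.583%), 6 of them in ENSG00000280441 on chromosome 21, and the 1076 regions with fewer held 2060 sites with 130 arrays (6.31%). Their shares of stacked sites were 17.6% and 19.6%. None of the 38 deepest sites lay in the 10 genes with most sites, though a depth of 4 was reached in ENSG00000280441, which had 12 sites.

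All 11 sites 5 peaks deep lay in introns, where 94.4% of all lncRNA-only peaks held no exonic base. By their widest peak 5 of the 11 sites were arrays, described here by their best-matching peak. The array of ENSG00000290911 (chr13:21289539-21290953) had a best offset of 60 bp at a self-match of 91.8%, that of ENSG00000258342 and ENSG00000257614 (chr14:35948027-35949361), the site shown above, 108 bp at 96.9% (4 of its 27-base units), that of ENSG00000256209 (chr12:131477485-131477837) 57 bp at 77.3%, that of ENSG00000287855 (chr16:846522-847265) 44 bp at 86.4% and that of ENSG00000261273 (chr16:88246774-88247960) 108 bp at 83.9%. The remaining depth-5 sites lay in ENSG00000249335 with ENSG00000250066, ENSG00000285300, ENSG00000287161, PDGFA-DT, MCPH1-AS1 and ENSG00000253715. The widest lncRNA-only peak, of 2509 bp, lay in ENSG00000280441 at chr21:8415202-8417710 and held a 2-bp repeat of 38 bp.

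Most of the deep sites were near chromosome ends, 22 of the 38 within 5 Mb. Of the lncRNA-only sites in that zone (283, or 7.86%) 25.4% were arrays (20.7 to 30.8), against 2.02% (1.59 to 2.56) elsewhere, and sites outside both gene types showed 28.7% and 5.52%. For sites in protein-coding genes the values were 32.2% and 2.80%, so the rise near the ends was not particular to lncRNA-only sites. Chromosome 21 held 114 lncRNA-only peaks, 48 of which, in 23 sites with 8 arrays, lay in its first 9 Mb, where the widest peak lies.

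Repetition beyond the peak was measured by the 24-base words in 200 bases at the deepest stretch of each site. In the median lncRNA-only site 88.1% of these words occurred once in hg38, against 82.5% outside both gene types, 97.7% in protein-coding genes and 98.9% in 4176 windows set every 100 kb in lncRNA-only DNA. All words were unique at 33.1% of lncRNA-only sites (31.6 to 34.6) and in 46.9% of the regular windows (45.4 to 48.4). Words mostly found 10 or more times were rarer at the sites, in 5.36% against 10.6%. Lone and stacked sites differed here too, with a median of 92.1% unique words at a depth of 1 and 47.7% at 4 or 5. LncRNA-only sites thus had fewer windows of unique words than the regular grid and also fewer windows of words with 10 or more copies. The part of read placement in this was not tested.

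The strand of the RNA carried slightly more T than A under the peaks. Over 3276 lncRNA-only sites with lncRNA genes on 1 strand, the widest peak had 32.03% ± 9.004 T and 28.76% ± 8.750 A (SD over sites) on the RNA-like strand, and T exceeded A at 1897 sites. In all bases of such genes outside protein-coding genes the values were 30.7% T and 29.3% A. The excess was present for genes on the plus strand (32.4% T, 28.6% A) and on the minus strand (31.62% T, 28.96% A), and the spread between sites was wider than the difference.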

How the data were processed

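The deposited list holds chromosome, start and end of each peak and no other column. The authors aligned reads to hg38 with Bowtie 2, called BrdU peaks against input DNA with MACS2 (version 2.1.0 in the submitters' processing notes) and gathered the peaks of all timepoints. Whether reads of several places were removed, and the read counts, are not given in the sources used here, so the depth behind a peak is unknown.

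Peaks, with starts read as counted from 0, were joined to GENCODE version 44 genes. Sites merged overlapping or touching autosomal peaks, and 2 of mixed class stayed out of the tests. Density used known bases of hg38. Shares have Wilson and densities exact Poisson intervals, and intervals of a median came from the binomial order statistics. The 6 Fisher's exact tests were adjusted together with a threshold of 0.05. Genes were named by rule: the 10 with most sites, the 5 densest with at least 3 sites and 20 kb outside protein-coding genes, genes at depth-5 sites, the widest peak and the longest tract, the 3 with most exons under a peak, and up to 4 from each gene list. Orientation was weighed on a 1-kb grid. Python 3.11.15, pandas 2.3.3, SciPy 1.17.1 and numba 0.67.0 were used, and the functions were tested on simulated data. Alternatives were midpoints, annotation level, distance, merging, limits for arrays and tracts, and left-out chromosomes, genes and zones. The members, gene lists and tests were chosen with earlier results of these data known. The p-values compare sites, not cultures, and the ChIP-seq samples were not analysed here. The sequences of 4 further sites, and the values that rest on them, are not reported here.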

Additional observations from a re-analysis of the deposited data

How the results depend on the processing

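Of 44 repeats of the 6 tests under another setting, 37 kept the direction and the side of the threshold. Differences are in percentage points, lncRNA-only minus the other class. For sites 2 or more peaks deep, merging peaks within 1 kb gave -1.35 against sites outside both gene types (adjusted exact p = 0.268) and -0.249 against protein-coding genes (adjusted exact p = 0.806). Chosen after seeing the data were 2 settings. Without sites within 5 Mb of a chromosome end the first of these differences was -1.59 (adjusted exact p = 0.0581). Without lncRNA-only sites in regions of 10 or more sites, which were left out of that class alone, the differences in depth were -1.79 (adjusted exact p = 0.0993) and -1.16 (adjusted exact p = 0.229), and that in arrays against protein-coding genes turned to 1.28 (adjusted exact p = 0.0378). Against sites outside both gene types the difference in arrays ran from -7.14 to -0.917 and that in tracts from -3.49 to -0.625. The tract difference from protein-coding genes, past no threshold under any setting tried, was -0.0657 without chromosome 21. Of 24 other repeats 17 moved little, by less than 1.5 times for the number of peaks, which ran from 4218 without peaks within 5 kb of a protein-coding gene to 4502 with chromosome X, and within the interval of the main value for the rest. The density was 8.58 per Mb in merged sites, the exonic share 3.75% by midpoints, the median distance 100.4 kb to a transcription start, the median gene length 43.4 kb for genes that overlap no protein-coding gene, and the mean AT content 60.8% in merged sites, 60.9% without arrays and 60.1% over pooled bases. Annotation level changed nothing, since all 18390 lncRNA genes are of level 1 or 2. The causes were not tested. No paired analysis was possible because no peak carries a repeat number. Depth of sequencing, and so the smallest peak that could be called, cannot be read from the list.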
